A study of Mus musculus with 12 samples.

Results

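Transcripts of 37 epithelial and keratinocyte genes were followed in 12 MC38/hPD-L1 tumors. The genes were taken by name from a list of 19 simple epithelial and 18 keratinocyte genes, and all 37 were among the 33018 lines of the count table. The MC38 line comes from a colorectal adenocarcinoma of the mouse. It had been transduced with human PD-L1, as the mouse protein is not bound by ALPN-202, and was implanted under the skin of the flank of female C57BL6 mice (C57BL/6NJ in the methods) aged 8 to 10 weeks. On day 8 the mice had received a single intraperitoneal dose of 100 µg ALPN-202 (a CD80 variant fused to an Fc, which binds PD-L1, CD28 and CTLA-4), of 100 µg anti-PD-L1 (the antibody durvalumab) or of 75 µg Fc control, and tumors were taken 72 h later, with 4 tumors in each group. All 3 groups thus shared the line, its human PD-L1, the site and the time of sampling. The labels gave no genotype beyond this, and nothing in them assigned a tumor to a cage or a day of extraction.

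Epithelia of 1 cell layer, such as gut lining and gland ducts, build their filaments from the keratins KRT7, KRT8, KRT18, KRT19 and KRT20, seal their cell borders with claudins and E-cadherin, and carry EPCAM on the surface. In stratified skin, basal keratinocytes next to the dermis use KRT5, KRT14 and KRT15 under the transcription factor p63, and cells that leave this layer switch to KRT1 and KRT10 and then assemble a cornified envelope from loricrin, involucrin and filaggrin. Tumor cells that lose the epithelial program turn these genes down and carry mesenchymal proteins such as vimentin. Bulk RNA mixes tumor cells with everything taken along with the tumor, so that fewer cells of a type and less RNA per cell cannot be told apart in any value below.

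Libraries held 3988266 to 10692817 counts, the smallest being ALPN-202 replicate 4. The libraries of ALPN-202 replicate 4 and Fc control replicate 1 stood apart from the other 10. Genes of up to 1752 bases of exon were higher in them than in the median tumor, by median log2 differences of 0.94 and 0.67, and the same differences were -0.69 and -0.64 for genes with 5977 bases or more, against values between -0.16 and 0.12 in the other libraries. Levels are given as the deposited TPM (transcript abundance corrected for transcript length and library total), always for replicates 1 to 4 in this order. Tests on counts used the quasi-likelihood method of edgeR with all 12 tumors in 1 model, and CPM are counts scaled to the library size after TMM normalization. Of the 37 genes 31 passed the expression filter, 14 simple epithelial and 17 keratinocyte. Krt20, Cdh17, Elf3, Ehf, Prom1 and Dsg3 did not and have values but no test.

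The colorectal label was set against 18 intestinal epithelium genes. The intestinal transcription factors Cdx2 and Hnf4a, the fatty acid binding protein Fabp1, the goblet cell peptide Tff3, the chloride transporter Slc26a3 and the carbonic anhydrase Car1 had 0 counts in all 12 tumors, and 3 of the 18 genes passed the filter. The highest of the list were Lgals4 (3.37 to 13.9 TPM), Car4 (1.73 to 20.1 TPM) and Lgr5 (0.151 to 1.29 TPM). Krt20, the keratin of differentiated gut epithelium, lay between 0 and 1.15 TPM, and Cdh17, the intestinal cadherin, between 0.0706 and 0.649 TPM. In contrast, Vim, which encodes vimentin, was at 3957, 3702, 3999 and 1658 TPM in ALPN-202 tumors, at 3802, 3548.5, 4609 and 4343 TPM in anti-PD-L1 tumors and at 2583.5, 3973, 4918 and 4426.5 TPM in Fc control tumors. Gut markers were thus undetected or low in these tumors, whereas a mesenchymal filament gene was among the abundant transcripts in each of them. Vim had the highest mean TPM of a list of 10 mesenchymal genes, and Zeb1 of that list had 0 counts in all 12 tumors. Which cells of the tumors carried Vim was not tested.

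The DNA before the start sites of the simple epithelial genes is shown because such genes carry sites of known epithelial regulators. A RefSeq table of promoters (build GRCm38.p6, which differs from the build NCBIM37 of the count files) held 24 windows for 21 of the 37 genes, since some genes have more than 1 start, and the 250 bases before the start were searched for ACCGGT, the core that grainyhead-like factors such as Grhl2 recognize (the same on both strands), and for CACCTG or its complement CAGGTG, the E-box of the SNAI and ZEB repressors. ACCGGT stood in 2 of 14 windows of simple epithelial genes (Epcam and Spint1), in 0 of 10 of keratinocyte genes and in 1.86% of all 32851 windows. The E-box stood in 9 of 14 simple epithelial windows, 5 of 10 keratinocyte windows and 17.2% of all. The 4 simple epithelial and 2 basal keratinocyte sequences that follow run 5′ to 3′ on the strand of the gene, with both motifs in capitals. They lie at chr17:87635729-87635978 (Epcam, plus strand), chr15:102004343-102004592 (Krt8, minus), chr15:102027966-102028215 (Krt18, plus), chr5:134946935-134947184 (Cldn4, minus), chr11:100206031-100206280 (Krt14, minus) and chr15:101712906-101713155 (Krt5, minus).
Epcam: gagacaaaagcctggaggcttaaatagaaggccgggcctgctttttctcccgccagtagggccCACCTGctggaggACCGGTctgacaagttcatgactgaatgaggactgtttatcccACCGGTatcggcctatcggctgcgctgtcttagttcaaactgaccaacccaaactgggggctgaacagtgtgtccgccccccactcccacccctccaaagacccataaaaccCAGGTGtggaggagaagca
Krt8: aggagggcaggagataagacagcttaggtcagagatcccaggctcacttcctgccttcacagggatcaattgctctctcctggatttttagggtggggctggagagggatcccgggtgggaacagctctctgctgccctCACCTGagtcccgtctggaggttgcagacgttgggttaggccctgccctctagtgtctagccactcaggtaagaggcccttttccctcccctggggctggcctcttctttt
Krt18: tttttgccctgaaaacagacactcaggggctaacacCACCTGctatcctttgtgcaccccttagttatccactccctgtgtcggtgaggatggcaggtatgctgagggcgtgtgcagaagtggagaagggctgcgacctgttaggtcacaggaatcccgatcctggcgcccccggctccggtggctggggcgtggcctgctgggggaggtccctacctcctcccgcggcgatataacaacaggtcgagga
Cldn4: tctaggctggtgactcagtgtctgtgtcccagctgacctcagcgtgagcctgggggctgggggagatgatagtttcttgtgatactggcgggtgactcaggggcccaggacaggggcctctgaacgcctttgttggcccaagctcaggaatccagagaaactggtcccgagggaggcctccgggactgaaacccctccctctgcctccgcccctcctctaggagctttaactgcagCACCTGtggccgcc
Krt14: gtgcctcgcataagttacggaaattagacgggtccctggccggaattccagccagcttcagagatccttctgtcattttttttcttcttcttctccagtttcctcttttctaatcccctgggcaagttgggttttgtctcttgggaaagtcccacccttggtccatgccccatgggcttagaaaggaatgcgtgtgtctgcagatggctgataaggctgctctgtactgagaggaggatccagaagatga
Krt5: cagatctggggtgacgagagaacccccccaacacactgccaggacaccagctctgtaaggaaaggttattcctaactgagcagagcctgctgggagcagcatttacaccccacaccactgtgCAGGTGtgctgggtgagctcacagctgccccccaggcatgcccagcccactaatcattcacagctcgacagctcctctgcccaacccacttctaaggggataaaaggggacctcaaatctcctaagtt
Epcam held 2 ACCGGT and 2 E-boxes, Krt8, Krt18, Cldn4 and Krt5 held 1 E-box each, and Krt14 held neither. A match of these letters describes the sequence and is not a bound site.

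**Figure D1:**
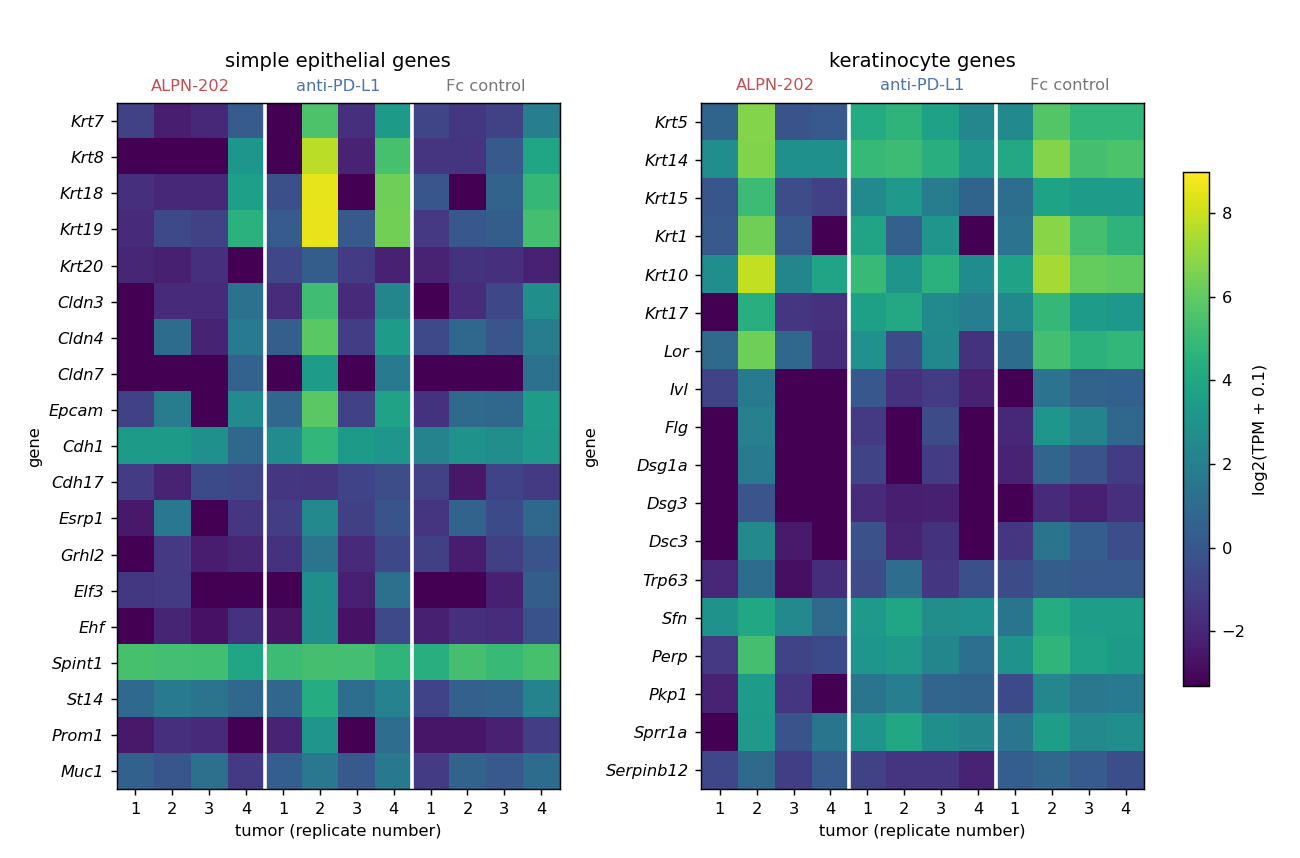
Heat map of log2(TPM + 0.1) of the 19 simple epithelial genes (left) and 18 keratinocyte genes (right), with 1 column per tumor and the groups ALPN-202, anti-PD-L1 and Fc control from left to right. Simple keratins and claudins were bright in anti-PD-L1 replicates 2 and 4, ALPN-202 replicate 4 and Fc control replicate 4, whereas Krt1, Krt10 and Lor were brightest in ALPN-202 replicate 2 and Fc control replicate 2.

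Krt8, Krt18 and Krt19 were at 8.65 TPM or more in 4 of the 12 tumors and at 1.43 TPM or less in the other 8. Krt8, which pairs with Krt18 in the filaments of simple epithelia, was at 0, 0, 0 and 8.65 TPM in ALPN-202 tumors, at 0, 213, 0.124 and 43.2 TPM in anti-PD-L1 tumors and at 0.277, 0.271, 0.989 and 15.1 TPM in Fc control tumors. Krt18, its type I partner, was at 0.212, 0.155, 0.159 and 12.4 TPM with ALPN-202, at 0.699, 376, 0 and 78.5 TPM with anti-PD-L1 and at 0.892, 0, 1.43 and 29.7 TPM with Fc control. Both genes had the same 4 high tumors, in each group replicate 4 and, with anti-PD-L1, replicate 2 as well. The 2 genes lie 23873 bases apart on chromosome 15 of NCBIM37, Krt8 from 101827142 to 101834773 and Krt18 from 101858647 to 101862457. Where a library had 0 counts, 3 counts would have stood at 0.286 to 0.413 CPM in ALPN-202 replicates 1 to 3, which is the level that a count of 0 allows for counting error alone.

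Krt19, the smallest keratin, found in ducts and glands, was at 0.188, 0.551, 0.423 and 23.0 TPM in ALPN-202 tumors, at 1.09, 382, 0.993 and 83.1 TPM in anti-PD-L1 tumors and at 0.317, 0.931, 1.13 and 41.6 TPM in Fc control tumors. Krt7, the type II keratin of ducts, was at 0.434, 0.106, 0.163 and 1.06 TPM with ALPN-202, at 0, 47.5, 0.218 and 10.4 TPM with anti-PD-L1 and at 0.488, 0.299, 0.436 and 3.77 TPM with Fc control. Krt7 set ALPN-202 replicate 4 apart least, with 12 counts there. For all 4 of these keratins the SD of the anti-PD-L1 tumors exceeded the differences between the group means, since each mean followed from 1 or 2 high tumors. For Krt8 the means were 2.16 ± 4.32 TPM with ALPN-202, 64.0 ± 101 TPM with anti-PD-L1 and 4.16 ± 7.30 TPM with Fc control (SD, n = 4 each). In the 4 high tumors the amounts kept a similar proportion, with a TPM ratio of Krt18 to Krt8 of 1.44 in ALPN-202 replicate 4, 1.77 and 1.82 in anti-PD-L1 replicates 2 and 4 and 1.97 in Fc control replicate 4.

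Junction and surface genes followed the same tumors. Epcam, an adhesion molecule of epithelial membranes, was at 0.436, 3.62, 0 and 6.05 TPM in ALPN-202 tumors, at 1.56, 57.1, 0.438 and 13.7 TPM in anti-PD-L1 tumors and at 0.245, 1.80, 1.64 and 11.1 TPM in Fc control tumors. Cldn4, a tight junction claudin, was at 0, 1.92, 0.123 and 3.21 TPM with ALPN-202, at 1.22, 57.0, 0.371 and 10.9 TPM with anti-PD-L1 and at 0.552, 1.62, 0.863 and 3.64 TPM with Fc control. Epcam and Cldn4 thus also had low but clear values in ALPN-202 replicate 2, where the keratinocyte genes were high and Krt8 was at 0. Cldn7, another claudin, was at 0 counts in 8 of the 12 tumors and at 1.36 TPM in ALPN-202 replicate 4, 10.9 and 3.20 TPM in anti-PD-L1 replicates 2 and 4 and 2.38 TPM in Fc control replicate 4. Cldn3, whose gene overlaps Wbscr25 on the opposite strand, reached 37.3 TPM in anti-PD-L1 replicate 2. The library kit did not mark strand, so reads of overlapping genes cannot be told apart, which also holds for Esrp1, Grhl2, Elf3, St14, Prom1 and Krt10 and the predicted genes that overlap them.

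Regulators of the epithelial state stayed at 6.86 TPM or below, and each was highest in anti-PD-L1 replicate 2. Grhl2, a grainyhead-like transcription factor that maintains epithelial junction genes, was at 0, 0.307, 0.0898 and 0.147 TPM in ALPN-202 tumors, at 0.247, 2.55, 0.181 and 0.545 TPM in anti-PD-L1 tumors and at 0.404, 0.0989, 0.406 and 0.826 TPM in Fc control tumors. Its highest library held 57 counts and 8 of the others held 8 counts or fewer. Esrp1, an epithelial splicing regulator, ranged from 0 to 5.38 TPM and was highest in anti-PD-L1 replicate 2 and then in ALPN-202 replicate 2 (2.92 TPM). The ETS factors Elf3 and Ehf reached 6.86 and 6.69 TPM in anti-PD-L1 replicate 2, and Prom1, which encodes the membrane protein prominin-1 of luminal surfaces, reached 8.51 TPM there.

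Cdh1 and Spint1 were present in every tumor and did not single out the tumors with high simple keratins as a set. Cdh1, which encodes E-cadherin (chromosome 8, 109127251 to 109194146 of NCBIM37), was at 10.4, 10.2, 7.22 and 1.72 TPM in ALPN-202 tumors, at 5.96, 28.6, 10.3 and 8.93 TPM in anti-PD-L1 tumors and at 4.51, 7.62, 6.75 and 9.79 TPM in Fc control tumors. Cdh1 was thus highest in anti-PD-L1 replicate 2. Its lowest TPM values came from the libraries with a length trend, ALPN-202 replicate 4 and Fc control replicate 1 (6.86 and 13.4 CPM). Spint1, an inhibitor of membrane serine proteases such as matriptase, was at 42.0, 40.1, 38.5 and 15.6 TPM with ALPN-202, at 35.3, 41.1, 39.8 and 26.3 TPM with anti-PD-L1 and at 20.7, 40.6, 32.7 and 41.9 TPM with Fc control. Its 2 lowest values were those of the 2 libraries with a length trend, and on CPM these stood at 32.7 and 32.3, within the range of the other tumors (24.2 to 45.3). St14, which encodes matriptase, was at 1.73, 3.26, 2.59 and 1.67 TPM with ALPN-202, at 1.58, 19.6, 2.13 and 4.34 TPM with anti-PD-L1 and at 0.460, 1.28, 1.44 and 4.39 TPM with Fc control. Muc1, a mucin of apical surfaces, stayed between 0.324 and 3.11 TPM.

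Across the 19 simple epithelial genes 17 (89.5%) had their highest CPM in anti-PD-L1 replicate 2, against 10.7% of all 14142 genes tested, and for 10 of 19 (52.6%) the 4 highest tumors were exactly ALPN-202 replicate 4, anti-PD-L1 replicates 2 and 4 and Fc control replicate 4, against 0.849% of all genes. These 4 tumors were noticed in the data, so the shares are a description. The exceptions at the top were Spint1, highest in ALPN-202 replicate 1, and Cdh17, highest in ALPN-202 replicate 4. Without Spint1 and Cdh1 the summed level of the list was 5.27, 14.8, 7.04 and 61.3 TPM in ALPN-202 tumors, 9.13, 1234, 6.99 and 262 TPM in anti-PD-L1 tumors and 4.97, 9.91, 11.6 and 126 TPM in Fc control tumors. The highest of the other 8 tumors thus had 14.8 TPM and the lowest of the 4 had 61.3 TPM. With Spint1 and Cdh1 included, these tumors, ALPN-202 replicates 2 and 4, were at 65.1 and 78.7 TPM. The size of the gap therefore depended on leaving the 2 genes out.

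The adipocyte list was highest in these 4 tumors as well, and the mammary gland list stood out in 3 of them. The summed level of 15 adipocyte genes was 233, 310, 483 and 2077 TPM in ALPN-202 tumors, 381, 18452, 171 and 4324 TPM in anti-PD-L1 tumors and 197, 210, 350 and 2716 TPM in Fc control tumors. All 15 were highest in anti-PD-L1 replicate 2, and for 11 of 15 the 4 highest tumors were those above. Adipoq, the adipocyte hormone adiponectin, was at 97.5 TPM in ALPN-202 replicate 4, 668 and 145 TPM in anti-PD-L1 replicates 2 and 4 and 69.8 TPM in Fc control replicate 4, against 0.917 to 8.11 TPM elsewhere, and the list was led by Fabp4, Cfd and Car3. Of 20 mammary epithelium genes measured, 15 had any count, 11 of these were highest in anti-PD-L1 replicate 2 and 7 had the 4 tumors at the top. The list summed to 13.2, 8.91, 10.1 and 18.6 TPM with ALPN-202, to 13.7, 311, 6.38 and 64.6 TPM with anti-PD-L1 and to 4.99, 9.08, 8.44 and 46.4 TPM with Fc control. ALPN-202 replicate 4, at 18.6 TPM, was thus close to the tumors outside the 4, which reached 13.7 TPM.

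Among the mammary genes Areg, the growth factor amphiregulin of ductal growth, was at 102 TPM in anti-PD-L1 replicate 2, the milk protein gene Csn3 at 59.3 TPM and the lactoferrin gene Ltf at 36.2 TPM. The milk genes Csn1s2a, Csn1s2b, Csn2, Wap and the gene Lao1 had 0 counts in all 12 tumors. Luminal cells of mammary ducts carry Krt8, Krt18, Krt19, Krt7 and Epcam, and the fat pad around them carries the adipocyte genes. What part these tissues had in the simple epithelial values was not tested.

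**Figure D2:**
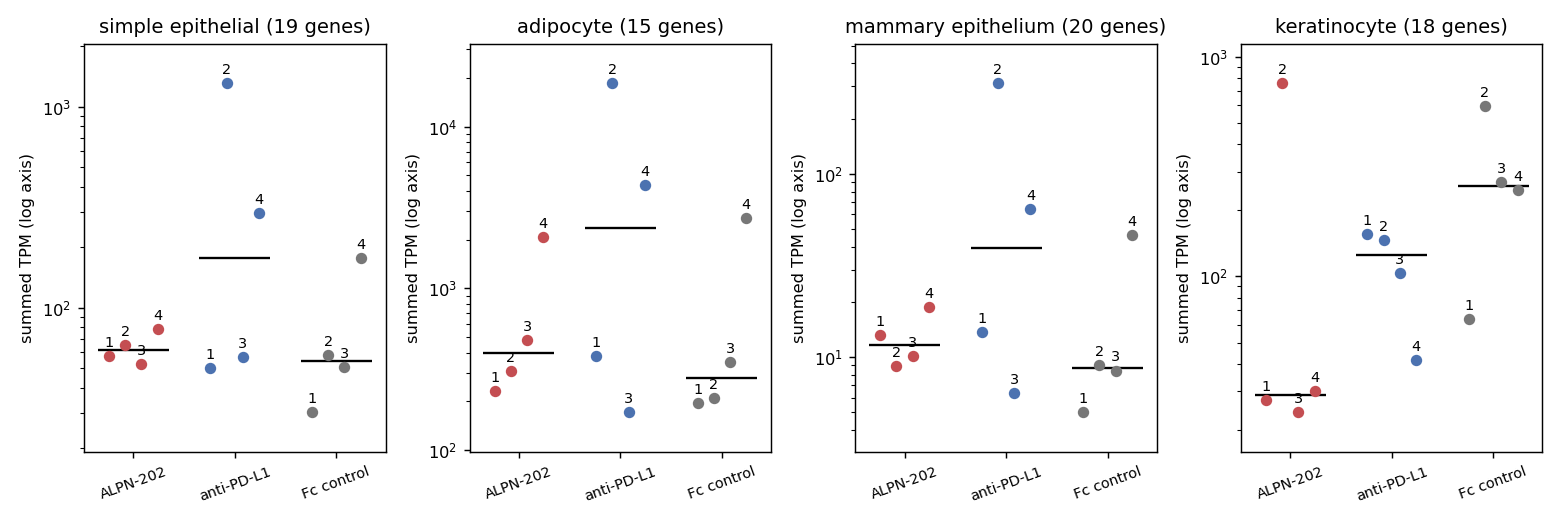
Summed TPM of the genes of each list in every tumor (log axis), with the groups ALPN-202, anti-PD-L1 and Fc control from left to right, points labelled by replicate number and lines at group medians. The simple epithelial, adipocyte and mammary lists put the same tumors on top, with anti-PD-L1 replicate 2 at 1304, 18452 and 311 TPM, whereas the keratinocyte list was highest in ALPN-202 replicate 2 at 755 TPM.

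In anti-PD-L1 against Fc control tumors the 14 simple epithelial genes tested had a median log2 fold change of 2.33 (the median of all genes was -0.03), with 13 positive and 1 negative, and edgeR called 0 of 31 genes of both lists at an adjusted p under 0.05, as it called 0% of all genes in each of the 3 comparisons. At an unadjusted p under 0.05 there were 3 higher, against 1.44% of all genes, all of them simple epithelial. They were Krt7 (log2 fold change 3.45, standard error 1.57), Cldn4 (3.29, standard error 1.43) and St14 (1.81, standard error 0.79), each with an adjusted p = 0.826 in edgeR. Krt8 had the highest value, 3.89 with a standard error of 2.07. Without anti-PD-L1 replicate 2 the median was 0.39, and without Fc control replicate 4 it was 3.88. With each tumor left out in turn 0 to 8 genes were higher at an unadjusted p under 0.05, 8 without Fc control replicate 4 and 0 in 5 of 12 cases, among them that without anti-PD-L1 replicate 2. Of all genes, 295 of 14407 were higher at that threshold without Fc control replicate 4, and 48 of 14275 without anti-PD-L1 replicate 2. Without the 4 tumors high in simple epithelial genes, 7 of the list passed the filter, with a median of 0.091.

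In ALPN-202 against anti-PD-L1 tumors the median of the simple epithelial genes was -2.83 (all genes 0.07), with 13 of 14 negative. At an unadjusted p under 0.05 there were 3 lower, against 2.47% of all genes. These were Krt7 (-4.76, standard error 1.79), Cldn4 (-3.32, standard error 1.49) and Grhl2 (-2.39, standard error 1.03), with adjusted p values of 0.418, 0.525 and 0.509 in edgeR. Without anti-PD-L1 replicate 2 the median was -0.99, without ALPN-202 replicate 4 it was -4.14, and without the 4 high tumors it was 0.49. In ALPN-202 against Fc control tumors the median was -0.14 (all genes 0.04), between -1.57 without ALPN-202 replicate 4 and 0.96 without Fc control replicate 4, with 4 positive and 10 negative. There 0 of the 31 genes were at an unadjusted p under 0.05 in either direction, against 7.2% of all genes higher and 1.98% lower. Comparisons that share a group share its tumors and are not independent of each other.

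Spint1 bounded a difference most closely. Its log2 fold change was 0.09 (standard error 0.21) in ALPN-202 against Fc control, -0.07 (standard error 0.21) in anti-PD-L1 against Fc control and 0.16 (standard error 0.21) in ALPN-202 against anti-PD-L1 tumors. Cdh1 was at 0.08 (standard error 0.48), 0.79 (standard error 0.48) and -0.71 (standard error 0.48) in the same comparisons, and without anti-PD-L1 replicate 2 its value in anti-PD-L1 against Fc control was 0.05 (standard error 0.34). The standard errors of the simple epithelial genes otherwise reached 2.25, so that changes of several fold could not be told from 0 for most of them.

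**Figure D3:**
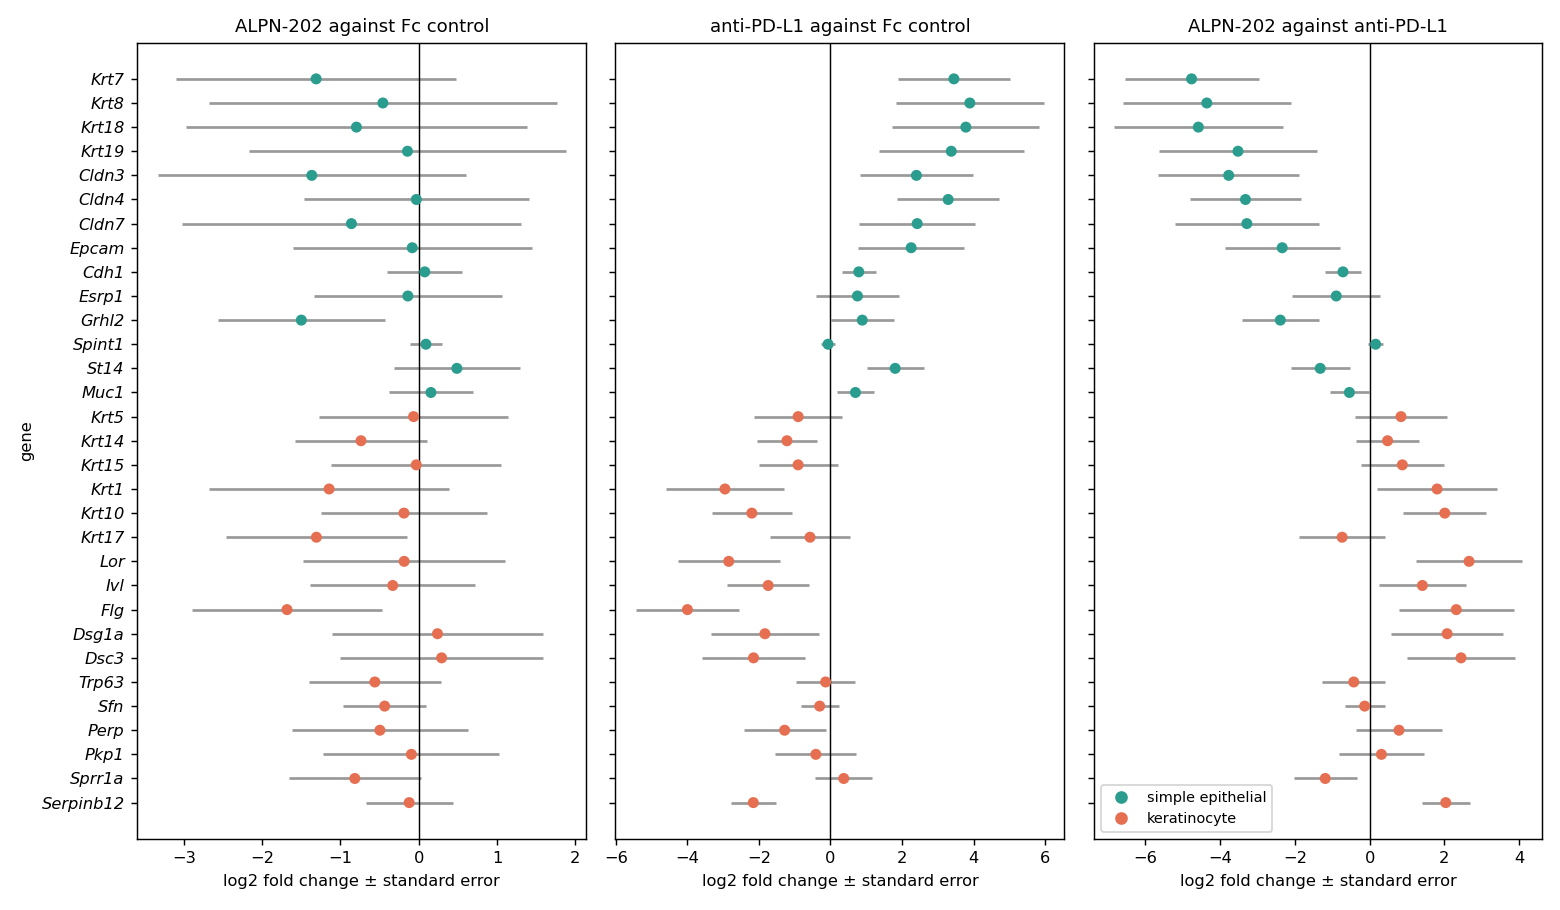
Log2 fold changes with standard errors (edgeR, 12 tumors) of the 31 genes tested in ALPN-202 against Fc control, anti-PD-L1 against Fc control and ALPN-202 against anti-PD-L1 tumors, simple epithelial genes in green and keratinocyte genes in orange. Simple keratins and claudins lay far to the right with anti-PD-L1 (Krt8 at 3.89, standard error 2.07), and none of the 31 passed the adjusted threshold.

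The keratinocyte genes divided the tumors in another way. Krt14, the type I keratin of basal keratinocytes, was at 6.46, 102, 7.19 and 7.06 TPM in ALPN-202 tumors, at 30.2, 35.1, 21.6 and 8.47 TPM in anti-PD-L1 tumors and at 17.2, 105, 41.1 and 45.5 TPM in Fc control tumors. Krt5, its type II partner, was at 1.49, 107, 0.811 and 0.995 TPM with ALPN-202, at 19.0, 26.1, 13.3 and 5.03 TPM with anti-PD-L1 and at 5.59, 52.4, 28.0 and 28.4 TPM with Fc control. ALPN-202 replicate 2 and Fc control replicate 2 were the highest tumors in both genes, and the other 3 ALPN-202 tumors were below every Fc control tumor. Krt15, a keratin of basal cells and hair follicle bulge, reached 34.3 TPM in ALPN-202 replicate 2 and 14.2 TPM in Fc control replicate 2. Trp63, which encodes p63, was low and between 0.0414 and 2.02 TPM, highest in anti-PD-L1 replicate 2.

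Genes of the differentiated layers were more uneven. Krt1, the type II keratin of suprabasal cells, was at 0.970, 80.5, 0.999 and 0 TPM in ALPN-202 tumors, at 14.8, 1.27, 8.41 and 0 TPM in anti-PD-L1 tumors and at 2.45, 112, 41.6 and 25.9 TPM in Fc control tumors. Krt10, its partner, was at 6.51, 234, 4.88 and 14.7 TPM with ALPN-202, at 32.6, 8.14, 23.1 and 6.22 TPM with anti-PD-L1 and at 13.6, 162, 68.5 and 60.8 TPM with Fc control. Lor, which encodes loricrin of the cornified envelope, was at 1.84, 78.4, 1.63 and 0.204 TPM with ALPN-202, at 7.44, 0.623, 5.29 and 0.253 TPM with anti-PD-L1 and at 1.97, 39.7, 24.1 and 28.7 TPM with Fc control. All 3 genes were high in ALPN-202 replicate 2 and in Fc control replicates 2 to 4, intermediate in anti-PD-L1 replicates 1 and 3 and low in the other tumors. Krt10 did not reach 0 in any tumor, unlike Krt1.

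Flg, which encodes the filament-bundling protein filaggrin, was at 0, 4.08, 0 and 0 TPM in ALPN-202 tumors, at 0.329, 0, 0.601 and 0 TPM in anti-PD-L1 tumors and at 0.168, 8.71, 4.65 and 1.68 TPM in Fc control tumors. The gene consists of near-identical repeats and stood on 6 lines of the count table, of which the line with the largest total was used, so its level is uncertain. Ivl, which encodes involucrin, stayed between 0 and 3.21 TPM. Lor, Ivl, Flg and Sprr1a lie together on chromosome 3 of NCBIM37, from 91884197 at the start of Lor to 93097608 at the end of the last Flg line, in a cluster of cornified envelope genes.

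The basal and the suprabasal keratin parted in anti-PD-L1 replicate 2. There Krt14 was at 35.1 TPM, the highest of its group, while Krt1 was at 1.27 TPM, a ratio of Krt1 to Krt14 of 0.0361. The ratio was 0.150, 0.789, 0.139 and 0 in ALPN-202 tumors, 0.489, 0.0361, 0.390 and 0 in anti-PD-L1 tumors and 0.142, 1.07, 1.01 and 0.570 in Fc control tumors. It was thus lowest in 3 of the 4 tumors with high simple keratins, and Fc control replicate 4 was the exception among them, with both kinds of gene. The value of 0 in ALPN-202 replicate 4 rested on 33 counts of Krt14. The ratio of Krt10 to Krt5 went the other way there, at 14.8, the highest of all tumors, but rested on 6 counts of Krt5. It was 0.312 and 1.24 in anti-PD-L1 replicates 2 and 4, 2.14 in Fc control replicate 4 and 1.72 to 6.01 in the tumors outside these 4. Krt5, Krt14 and p63 also mark the basal, myoepithelial layer of mammary ducts, which lacks Krt1 and Lor.

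**Figure D4:**
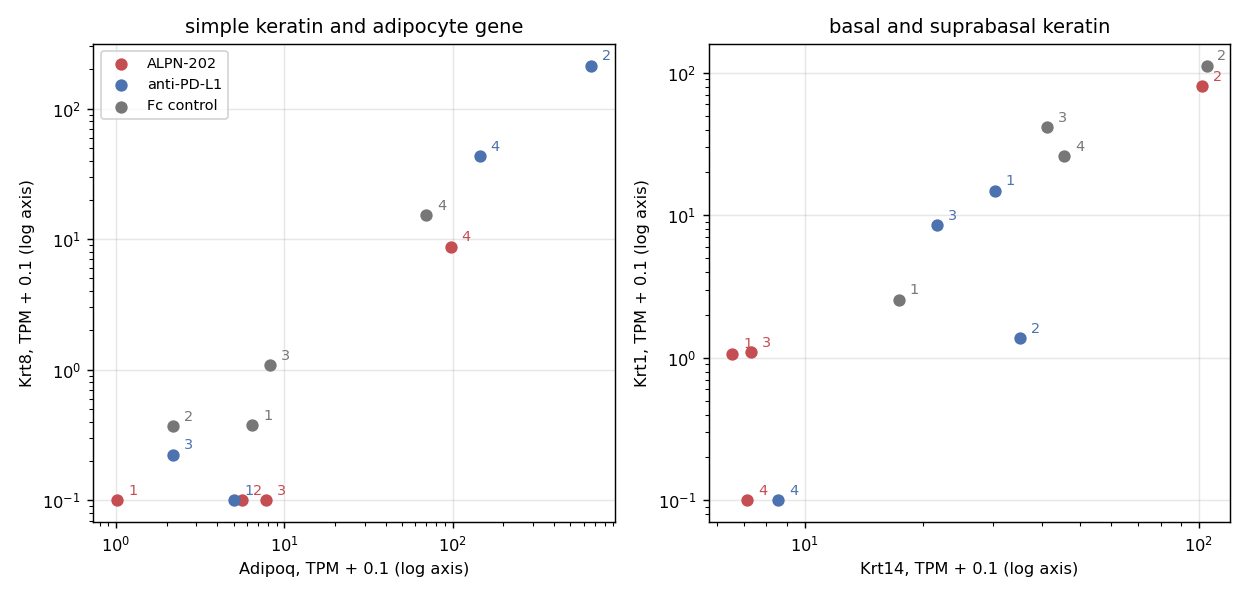
Levels of gene pairs in the 12 tumors (TPM + 0.1, log axes), with points colored by group and labelled by replicate number. The left plot sets Krt8 against Adipoq, with ALPN-202 replicate 4, anti-PD-L1 replicates 2 and 4 and Fc control replicate 4 apart at the upper right, and the right plot sets Krt1 against Krt14, with anti-PD-L1 replicate 2 below the other tumors of its Krt14 level.

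Adhesion and stress genes of keratinocytes followed in part. Perp, a p63 target that supports desmosomes, was at 0.312, 40.5, 0.467 and 0.573 TPM in ALPN-202 tumors, at 8.87, 9.66, 4.94 and 2.13 TPM in anti-PD-L1 tumors and at 7.62, 26.4, 13.1 and 10.5 TPM in Fc control tumors. The desmosomal plaque gene Pkp1 ranged from 0 to 10.6 TPM, and the desmosomal cadherins Dsg1a (0 to 3.13 TPM), Dsg3 (0 to 0.845 TPM) and Dsc3 (0 to 5.56 TPM) were low, all 4 highest in ALPN-202 replicate 2. Dsg1a has close copies in the mouse genome, so its counts may be shared with them. Sfn, the cell cycle protein 14-3-3 sigma, was present in every tumor at 1.80 to 19.6 TPM. Krt17, a keratin of hair follicles and activated epidermis, ranged from 0 to 29.3 TPM, and Sprr1a, an envelope protein induced in stressed epidermis, from 0 to 16.2 TPM with its highest value in anti-PD-L1 replicate 2. Of the 18 keratinocyte genes 10 (55.6%) had their highest CPM in ALPN-202 replicate 2, against 5.53% of all genes tested, and 5 (27.8%) in Fc control replicate 2, against 1.15%.

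Serpinb12, an intracellular serine protease inhibitor of epithelial cells, went its own way. It was at 0.526, 1.80, 0.394 and 1.07 TPM in ALPN-202 tumors, at 0.434, 0.262, 0.265 and 0.133 TPM in anti-PD-L1 tumors and at 1.18, 1.59, 1.06 and 0.672 TPM in Fc control tumors. Every anti-PD-L1 tumor lay below every Fc control tumor, with 1 to 3 counts against 5 to 11 counts per library. On CPM the groups did not overlap for Serpinb12 and Perp in this comparison, 2 of the 31 genes, against 2.63% of all genes, and on TPM Perp did overlap. In the other comparisons 0 of 31 were without overlap, against 4.18% of all genes in ALPN-202 against Fc control and 7.55% in ALPN-202 against anti-PD-L1.

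In anti-PD-L1 against Fc control tumors the 17 keratinocyte genes tested had a median log2 fold change of -1.28, with 1 positive and 16 negative. At an unadjusted p under 0.05 there were 2 lower, against 0.629% of all genes. These were Serpinb12 (-2.16, standard error 0.63) and Flg (-3.999, standard error 1.44), both with an adjusted p = 0.826 in edgeR. Krt1 was at -2.95 (standard error 1.65) and Lor at -2.84 (standard error 1.42), neither past an unadjusted p of 0.05 in edgeR. The counts at that threshold changed with the tumors in the fit. Without ALPN-202 replicate 2, a tumor of neither group, 8 genes were lower, against 0.628% of all genes, among them Krt1, Lor, Krt10, Krt14 and Perp, and in a fit of only the 2 groups 5 were lower (Krt1, Krt10, Lor, Dsc3 and Perp), against 1.39% of all genes, with 0 past the adjusted threshold in both. With each tumor left out in turn 1 to 8 were lower. The median lay between -1.49 and -0.82 with each tumor left out in turn.

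In ALPN-202 against Fc control tumors the median of the keratinocyte genes was -0.33, with 2 positive and 15 negative. Flg was at -1.68 (standard error 1.21), Krt1 at -1.14 (standard error 1.54) and Krt5 at -0.07 (standard error 1.21). ALPN-202 replicate 2 decided these values. Without it the median was -4.01, and 15 genes of the list were lower at an unadjusted p under 0.05, against 1.87% of all genes in the same fit, among them Perp at -4.75 (standard error 0.76) and Krt5 at -4.42 (standard error 0.81), with 0 past the adjusted threshold (lowest adjusted p = 0.451 in edgeR). Leaving out the highest tumor of each group, so that Fc control replicate 2 and anti-PD-L1 replicate 1 went as well, gave a median of -3.43 over the 12 genes that still passed the filter.

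In ALPN-202 against anti-PD-L1 tumors the keratinocyte median was 0.87, with 13 positive and 4 negative. At an unadjusted p under 0.05 there was 1 higher, against 6.82% of all genes, which was again Serpinb12 (2.04, standard error 0.64, edgeR adjusted p = 0.333). Without ALPN-202 replicate 2 the median turned to -2.59. DESeq2 called 0 of the 31 genes in each comparison, against 1.62% of all genes in ALPN-202 against Fc control, 0% in anti-PD-L1 against Fc control and 1.38% in ALPN-202 against anti-PD-L1.

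**Figure D5:**
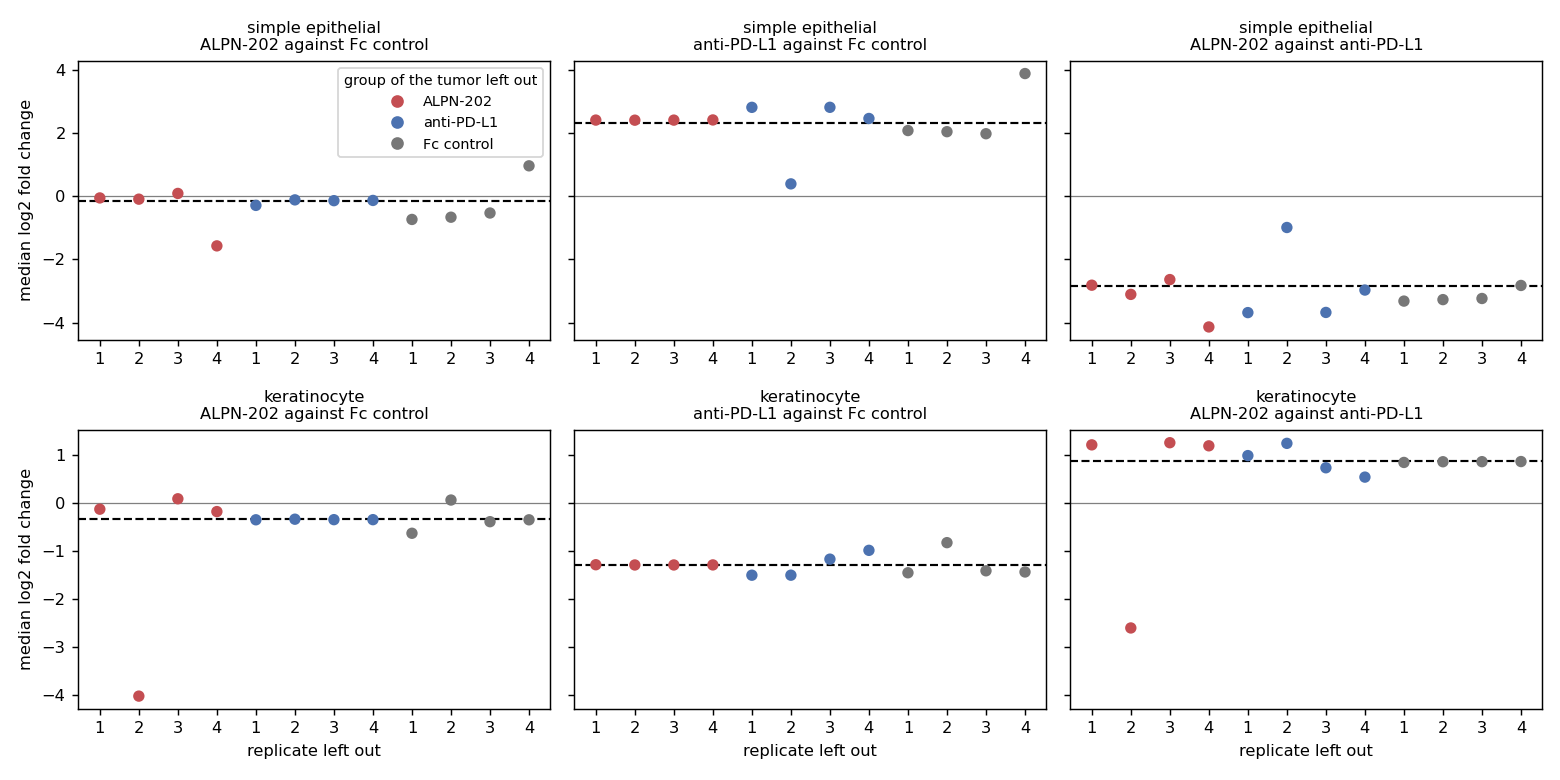
Median log2 fold change of the simple epithelial genes (top) and keratinocyte genes (bottom) in each comparison when 1 tumor was left out, with tumors ordered ALPN-202, anti-PD-L1, Fc control and colored by group. The dashed line is the value with 12 tumors, and the keratinocyte median in ALPN-202 against Fc control moved to -4.01 without ALPN-202 replicate 2.

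Other genes of the 2 programs were drawn from wider lists. Of 37 further junction and polarity genes 20 passed the filter, with medians of 0.04 in ALPN-202 against Fc control, 0.27 in anti-PD-L1 against Fc control and -0.20 in ALPN-202 against anti-PD-L1 tumors, and 0 were at an unadjusted p under 0.05. The highest were Cldn12 (80.9 to 187 TPM), F11r (30.3 to 63.7 TPM) and Tjp1 (3.66 to 36.3 TPM), which many cell types express, and 25 of the 37 were highest in anti-PD-L1 replicate 2. Of 31 further epidermal genes 22 passed, with medians of -0.23, -1.31 and 0.12 in the same comparisons. At an unadjusted p under 0.05 there were 3 lower with ALPN-202 than with Fc control (Krt6a, Krt6b and Krt16, keratins of activated epidermis), against 1.98% of all genes, and 2 lower with anti-PD-L1 than with Fc control (Krt16 and the envelope gene Hrnr), against 0.629% of all genes. The lowest adjusted p of this list was 0.424 in edgeR, for Krt16, so 0 genes were called.

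Krtdap, a secreted keratinocyte protein, was at 0.650, 138, 0 and 0 TPM in ALPN-202 tumors, at 21.98, 0.485, 8.82 and 0 TPM in anti-PD-L1 tumors and at 14.2, 84.2, 30.8 and 30.4 TPM in Fc control tumors. Its 4 highest tumors were those of Krt1 and Lor, ALPN-202 replicate 2 and Fc control replicates 2 to 4. Ly6d, a surface protein of keratinocytes and other cells, was instead highest in anti-PD-L1 replicate 2 at 196 TPM. Itga6, the integrin of basal cells and many others, was in every tumor at 7.08 to 40.1 TPM. Hair follicle keratins formed a separate set. Of 19 follicle genes measured, 14 had counts in other groups and 0 counts in all 4 ALPN-202 tumors, ALPN-202 replicate 2 included. Of all 22170 lines with any count 9.36% were at 0 in the ALPN-202 tumors only, and 6.84% of those with 4 to 196 counts in all, the range of the 14. Of the 14, 6 held 11 counts or fewer over the 12 tumors, and Msx2, a follicle transcription factor also found elsewhere, was highest in anti-PD-L1 replicate 2 at 4.69 TPM. Krt71, a keratin of the inner root sheath, was at 0 TPM in the 4 ALPN-202 tumors, at 2.91, 0.405, 8.39 and 0.103 TPM in anti-PD-L1 tumors and at 2.40, 5.15, 0 and 1.66 TPM in Fc control tumors. A count of 3 would have been 0.286 to 0.980 CPM in the ALPN-202 libraries. The sum of the 19 follicle genes, led by S100a3, was 5.04, 7.18, 7.75 and 26.1 TPM with ALPN-202. It was 28.3, 12.3, 40.2 and 18.4 TPM with anti-PD-L1 and 38.2, 34.8, 12.4 and 18.6 TPM with Fc control. Of these genes 4, 4, 3 and 3 had a count in the ALPN-202 tumors. Those numbers were 18, 8, 19 and 8 with anti-PD-L1 and 16, 17, 7 and 12 with Fc control.

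Genes of other tissues of the implantation site were at hand as well. The summed level of 12 skeletal muscle genes was 409, 714, 1064 and 18.5 TPM in ALPN-202 tumors, 594.5, 409, 195 and 13.8 TPM in anti-PD-L1 tumors and 318, 482, 199.8 and 319 TPM in Fc control tumors, and Acta1, skeletal actin, was at 1.76 TPM in ALPN-202 replicate 4 and 1.40 TPM in anti-PD-L1 replicate 4. Muscle genes were thus lowest in 2 of the tumors with high simple keratins. Sebaceous gland genes summed to at most 12.4 TPM with ALPN-202, 7.89 TPM with anti-PD-L1 and 12.6 TPM with Fc control, melanocyte genes to at most 2.08 TPM and mesothelium genes, led by Msln, to at most 8.76 TPM in any tumor. What part skin, fat or gland tissue taken with a tumor had in the values of either list was not tested.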

How the data were processed

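RNA of 12 MC38/hPD-L1 tumors was sequenced as single 58-base reads from full-length cDNA (SMART-Seq v4 and Nextera XT, which keep no strand). The raw counts, deposited as whole numbers, were obtained by the authors with htseq-count on reads aligned to mouse. STAR is the aligner of the methods, but the processing notes of the submitters give FastQC 0.11.3, TopHat 1.4.1, SAMtools 1.2, Picard 1.134 and HTSeq 0.4.1 on NCBIM37, which leaves the aligner unsettled. The authors divided the counts by gene length and scaled them to give the deposited TPM. Samples were grouped by GEO's labels, with doses, day and age from the methods.

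Counts were normalized by TMM, filtered with filterByExpr (minimum count 10, minimum total 15; 14142 genes) and fitted in 1 quasi-likelihood model of 12 tumors (edgeR 4.0.16, R 4.3.3), with Benjamini-Hochberg adjustment over all genes and a threshold of 0.05. Standard errors for edgeR are the size of the log2 fold change divided by the square root of the F statistic, as the test itself gives none. The test was tested on simulated counts. Alternatives were RLE, library size only, no filter, 10 counts in every tumor, a replicate block, the 2 groups alone, DESeq2 1.42.0, limma 3.58.1 on log2(TPM + 1) and log2(TPM + 0.1), Dunnett's comparison on TPM (mvtnorm 1.3.3) and each tumor left out. Settings added with the data in view left out the 2 length-trend libraries, the 4 tumors with high simple epithelial genes, or the highest epidermal tumor of each group. Levels were given in every tumor for the 6 genes of highest mean TPM in each list and for genes at an unadjusted p under 0.05 in any comparison, and of the other lists the 3 genes of highest mean TPM and, for other cell types, genes at 0 throughout were eligible. Genes outside this rule were named after their values were seen. The members and lists were chosen with earlier results of these data known. Nothing says that replicates came from separate experiments, and p-values measure the spread between these tumors. Coordinates were read from the NCBIM37 annotation (GENCODE M1) with Python 3.11.15, pandas 2.3.3, NumPy 2.4.6 and SciPy 1.17.1. Figures were drawn with Matplotlib 3.10.9.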

Additional observations from a re-analysis of the deposited data

Results flagged for a closer look

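Among 111 sets of 4 tumors of a group, 1 for each gene and group, 36 had a tumor far from the other 3, with a gap to the nearest that exceeded Dixon's 95% critical value on TPM. Of the 42288 such sets of all genes tested 12.3% had one, against the nominal 1 in 20 of the rule, and in 6 of the 36 the other 3 tumors were at 0 TPM, where any count is marked. Genes of a tumor are not independent. The marks fell on 4 tumors.

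In ALPN-202 replicate 2 there were 16. The keratins were Krt5 at 107 TPM, Krt14 at 102, Krt15 at 34.3, Krt1 at 80.5, Krt10 at 234 and Krt17 at 21.4 TPM. The envelope genes were Lor at 78.4, Ivl at 3.21 and Flg at 4.08 TPM, and the desmosomal genes Dsg1a at 3.13, Dsg3 at 0.845, Dsc3 at 5.56, Pkp1 at 10.6 and Perp at 40.5 TPM. Trp63 was at 1.94 and Esrp1 at 2.92 TPM. The other 3 ALPN-202 tumors were at most at 14.7 TPM for Krt10 and 7.19 TPM for Krt14, and at most at 1.84 TPM for the other genes.

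In Fc control replicate 4 there were 9, namely Krt7 at 3.77, Krt8 at 15.1, Krt18 at 29.7, Krt19 at 41.6, Cldn3 at 7.04, Cldn7 at 2.38, Epcam at 11.1, Elf3 at 1.14 and Ehf at 0.762 TPM, each above the other Fc control tumors. In ALPN-202 replicate 4 there were 6. Krt8 at 8.65, Krt18 at 12.4, Krt19 at 23.0, Cldn3 at 2.31 and Cldn7 at 1.36 TPM lay above the other ALPN-202 tumors, and Spint1 at 15.6 TPM lay below them (38.5 to 42.0 TPM). In anti-PD-L1 replicate 2 there were 5, namely Cldn3 at 37.3, Esrp1 at 5.38, Grhl2 at 2.55, Ehf at 6.69 and St14 at 19.6 TPM. Krt8, Krt18 and Krt19 were not marked in the anti-PD-L1 group, where replicate 4 was high beside replicate 2.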

How the results depend on the processing

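edgeR called 0 of the genes of either list in each comparison under every setting run. Of all genes, it called 428 of 14433 in ALPN-202 against Fc control without ALPN-202 replicate 4. Without the 2 length-trend libraries it called 1074 of 14382 there and 748 in ALPN-202 against anti-PD-L1 tumors. Without the 4 tumors with high simple epithelial genes it called 380 of 14321 in ALPN-202 against Fc control. Its other fits and comparisons called 0 of all genes. DESeq2 and limma also called 0 genes of the lists in each comparison, and Dunnett's comparison 0 in the 2 comparisons with Fc control, the only ones it was run for. The medians of the lists were less steady. With each tumor left out in turn, the simple epithelial median lay between -1.57 and 0.96 in ALPN-202 against Fc control, between 0.39 and 3.88 in anti-PD-L1 against Fc control and between -4.14 and -0.99 in ALPN-202 against anti-PD-L1 tumors, and the keratinocyte median between -4.01 and 0.10, between -1.49 and -0.82 and between -2.59 and 1.26. With 10 counts required in every tumor, 2 simple epithelial genes were left, at 0.38 in anti-PD-L1 against Fc control and -0.28 in ALPN-202 against anti-PD-L1 tumors. On log2(TPM + 0.1) the keratinocyte median was -2.03 in ALPN-202 against Fc control and -0.61 in ALPN-202 against anti-PD-L1 tumors, with a changed sign in the second comparison. The cause was not tested. On log2(TPM + 1) these keratinocyte medians were -1.27 and -0.34, again with the other sign in the second, and the median of all genes stood at -0.12, 0.13 and -0.24 in the 3 comparisons. Without the 4 tumors with high simple epithelial genes the simple epithelial median was 0.091 in anti-PD-L1 against Fc control and 0.49 in ALPN-202 against anti-PD-L1 tumors, and without the highest epidermal tumor of each group the keratinocyte median was -3.43 in ALPN-202 against Fc control and -2.52 in ALPN-202 against anti-PD-L1 tumors. Without the 2 length-trend libraries the simple epithelial medians were -1.695, 2.10 and -4.16 in the 3 comparisons, and the keratinocyte medians -0.38, -1.40 and 1.17. At an unadjusted p under 0.05 in edgeR, 10 genes were then lower with ALPN-202 than with anti-PD-L1, against 1232 of all 14382 genes. With anti-PD-L1 against Fc control 4 were lower, against 283 of all genes. These settings were all chosen after seeing the data.

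With the replicate number as a block the simple epithelial medians were -0.67, 1.78 and -2.47 and the keratinocyte medians -1.41, -1.31 and -0.32 in the 3 comparisons, with 0 genes called, and the last of these has the opposite sign to the 0.87 without the block. Of 12 pairs of libraries with the same number 5 correlated above 0.1, and 1 of 12 libraries correlated best with its own number. Between ALPN-202 and Fc control the correlations were -0.52, 0.47, 0.46 and -0.42 for replicates 1 to 4. In the other comparisons they ranged from -0.14 to 0.17. The labels give a shared number only, and whether samples of 1 number were handled together was not tested. Of the 18 genes named with values in every tumor, 12 changed sign with some tumor left out in ALPN-202 against Fc control, 2 in anti-PD-L1 against Fc control and 9 in ALPN-202 against anti-PD-L1 tumors, none of them called. Depth limited genes such as Serpinb12, with at most 14 counts in a library.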
